A study of Mus musculus with 5 samples.

Results

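Muscle taken 7 days after cardiotoxin was compared with muscle taken 4 days after it, over all 217 miRNA assays of a TaqMan panel. The members are every assay with a miRNA as its target, 217 of the 217 measured in the series, and 5 control RNAs on the panel served for scaling only. The tissue was the tibialis anterior, a muscle of the anterior leg, of C57BL/6J males aged 4 to 6 months. Both hind limbs of each mouse had received cardiotoxin (2.5 µM in saline, 100 µl into the anterior compartment), and the uninjected baseline muscles served here only to place the levels. Each arm held 4 values per assay, and the labels give 4 mice per time point. No mouse is named beside a value. Each value was treated as 1 mouse, and if some were repeat runs the p-values measure technical spread. Both arms carry the injury, so the comparison has no uninjured arm, and no sham injection was analysed here.

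Cardiotoxin is a snake venom peptide that lyses muscle fibres and spares many satellite cells, the stem cells beneath the fibre's sheath. Inflammatory cells clear the debris, satellite cells divide as myoblasts, and these fuse into new fibres with central nuclei that mature over the following weeks. A miRNA is a short RNA that represses messenger RNAs through its seed, bases 2 to 8 of the mature strand, so miRNAs with the same seed can act on the same messages. Several families are well known in this setting. They are the muscle miRNAs miR-1 and miR-133a, the imprinted Dlk1-Dio3 miRNAs, the miR-17-92 family of dividing cells and the miRNAs of blood cells. Whole muscle holds all these cells at once, and in such bulk tissue fewer cells of a type cannot be told apart from less RNA per cell.

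The mature strands that carry the main results are shown with their seeds in capitals. The first set holds the Dlk1-Dio3 miRNAs with the largest rises and miR-433, which lies between miR-431 and miR-127 and rose less.
miR-136: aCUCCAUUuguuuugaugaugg
miR-127: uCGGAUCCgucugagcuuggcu
miR-434-3p: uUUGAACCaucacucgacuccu
miR-431: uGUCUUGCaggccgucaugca
miR-433: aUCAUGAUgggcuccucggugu
These 5 seeds all differ, so the shared rise of these neighbours on chromosome 12 was not a rise of miRNAs with a common seed.

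The second set shows miR-351, the miRNA with the deepest fall, beside the miRNAs that share its seed, and then its chromosome X neighbours.
miR-351: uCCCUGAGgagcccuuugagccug
miR-125a-5p: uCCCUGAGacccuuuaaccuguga
miR-125b-5p: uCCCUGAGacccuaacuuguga
miR-322: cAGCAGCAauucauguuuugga
miR-503: uAGCAGCGggaacaguacugcag
miR-542-5p: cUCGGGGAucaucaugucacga
miR-351 carries the seed of the miR-125 miRNAs, whereas miR-322 carries that of miR-15 and miR-16.

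The third set holds miRNAs of a single seed that fell together, with miR-18a, whose seed differs from theirs, and the pair miR-7a and miR-7b.
miR-106a: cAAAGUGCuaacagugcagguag
miR-17: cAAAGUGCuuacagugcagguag
miR-93: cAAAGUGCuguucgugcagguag
miR-18a: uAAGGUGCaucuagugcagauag
miR-7a: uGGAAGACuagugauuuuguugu
miR-7b: uGGAAGACuugugauuuuguuguu
The last set gives pairs of a shared seed whose members went opposite ways.
miR-152: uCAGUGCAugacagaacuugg
miR-148b: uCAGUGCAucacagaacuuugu
miR-146a: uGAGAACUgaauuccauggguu
miR-146b: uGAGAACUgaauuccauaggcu
The sequences are those of RefSeq on the assembly GRCm38.p6. Of the 217 assays, 181 matched an entry, 46 by the name in the files and 135 through the arm that an older name denotes.

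Each level is a threshold cycle (Ct). This is the point of the PCR at which product is first seen, so a lower Ct means more RNA and 1 cycle is a doubling at full efficiency. At day 4 the miRNA assays had a median Ct of 22.05 and at day 7 of 21.81, and all 217 were detected on both days, meaning that 3 or more of the 4 wells came up before Ct 35. A single well, miR-99b at day 4, ran to the last cycle, 40, and was left out, so that miRNA rests on 3 values at day 4. Read depth has no counterpart here, and the number of wells limits the precision. In the text, scaled Ct is a well's Ct minus that well's shift of the median miRNA, and changes are log2 differences of day 7 minus day 4 relative to the median miRNA, with the standard error (SE) of a limma fit over 4 values per arm. Rose and fell are used of a miRNA that passed that fit at a Benjamini-Hochberg adjusted p under 0.05 over the 217 miRNAs. This scaling sets the median change to -0.0016, so a fall is measured against the other miRNAs.

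The number of falls differed with the reference RNA. U6, a spliceosomal RNA that the files mark as the endogenous control, read 13.76, 12.86, 13.77 and 12.48 cycles at day 4 and 12.74, 14.15, 14.44 and 12.87 at day 7. Its values spread over 1.29 and 1.70 cycles within the arms, where those of snoRNA202 spread over 0.23 and 0.01. Within arms the median miRNA moved 0.147 cycles per cycle of U6, and 9 of 216 miRNAs moved at least 0.75. The median residual SD was 0.235 with the median miRNA as reference and 0.699 with U6. Relative to U6, limma's fit gave miRNAs with 4 values per arm a common SE of 0.52. The U6 p-values therefore do not reflect each miRNA's own spread, and the spread of U6 enters all of them. Values 2 and 3 of day 7 differed by a median of 0.115 cycles, the other pairs of that arm by 0.26 to 0.33. With those values averaged as 1 mouse, 56 miRNAs rose and 56 fell, against the 60 and 65 of the full data. Whether both days were run on the same plates is not given in the sources used here.

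Relative to the median miRNA, 60 of 217 miRNAs (27.6%) rose from day 4 to day 7 and 65 (30.0%) fell, while 92 did not pass. Changes ran from -3.01 to 2.88, and 51 reached 2-fold, 35 of them upward. The 4 values of day 7 lay entirely above or below those of day 4 for 112 miRNAs (51.6%), among them 52 of the 60 that rose and 57 of the 65 that fell. Relative to U6 the median miRNA itself shifted by 0.55, and 36 miRNAs (16.6%) rose while 1 (0.461%) fell. Under both scalings 35 (16.1%) rose and 1 (0.461%), miR-351, fell. Because the SE relative to U6 was common, passing relative to U6 was in effect a threshold on the size of the change. The 35 rises under both scalings were the 35 rises of at least 2-fold, so passing under both adds no evidence beyond that size. With 12 scalings in all, 59 of the 60 rises kept their sign under every one, the exception being miR-133a, which quantile scaling sets to 0 because it has the lowest Ct in every well. Of the 65 falls, 35 kept their sign under every scaling. The share of calls that were rises was 48% with the median miRNA, 97.3% with U6, 78.3% with snoRNA135, 68.4% with snoRNA202, 56.7% with U87, 93.7% with Y1, 78.6% with the mean of the control RNAs, 65.8% with raw Ct and 37.4% with the median Ct. More of the rises than of the falls thus kept their sign, but the choice of scalings largely fixed this. Apart from quantile scaling, a changed reference shifts nearly all miRNAs alike. The median of all miRNAs then ran from -0.168 with the median Ct to 0.77 with Y1. The smallest change that passed was 0.319 in size, so such a shift could turn no rise, while small falls had to turn with Y1. Besides miR-351, 8 falls (miR-188-5p, miR-18a, miR-200c, miR-223, miR-511, miR-744, miR-7a and miR-7b) passed under 11 of the 12 scalings, all but U6.

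**Figure D1:**
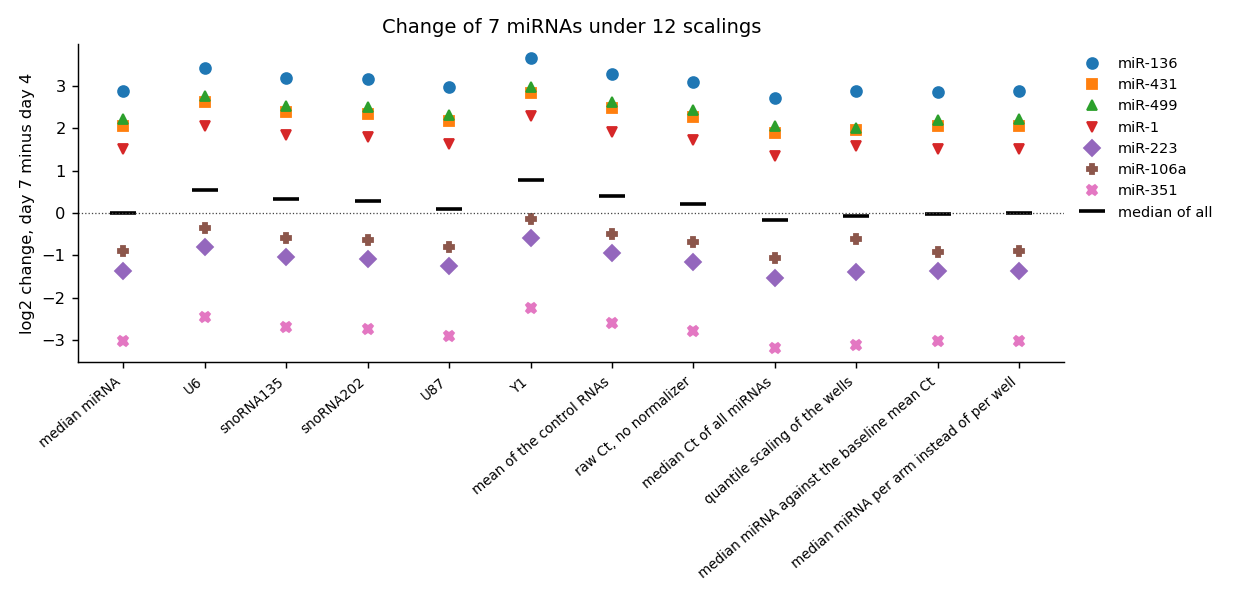
Log2 change from day 4 to day 7 of 7 miRNAs (markers) and of the median of all 217 miRNAs (black bars) under 12 scalings (x axis). miR-136, miR-431, miR-499 and miR-1 stayed above 0 and miR-351 and miR-223 below it under each scaling, while the median of all ran from -0.17 with the median Ct to 0.77 with Y1.

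The largest group to rise was that of the Dlk1-Dio3 miRNAs, which are made from the maternal copy of an imprinted domain. Of 30 measured members 27 rose, 24 of them under both scalings, and none fell, where 27.6% of all 217 miRNAs rose. Values did not overlap between the days for 25 members, against 51.6% of all miRNAs. The median change was 1.35, against -0.0016 over all 217 miRNAs, and lay between 1.19 and 2.13 under every scaling. Members of this list were chosen with earlier results of these data known, so their count describes the list and is no independent evidence.

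miR-136 rose the most of all 217 miRNAs. Its scaled Ct was 23.47, 22.97, 23.42 and 23.27 at day 4 and 20.04, 20.42, 20.28 and 20.88 at day 7, a rise of 2.88 ± 0.19 (7.35-fold, adjusted p = 9.3e-06, and 3.42 relative to U6). All 4 day 7 wells held more miR-136 than any baseline well, whose values ran from 21.35 to 22.23, and all 4 day 4 wells held less. miR-127, which like miR-136 is transcribed antisense to the retrotransposon-derived gene Rtl1, went from 18.14, 18.25, 18.24 and 18.38 to 15.70, 15.47, 15.48 and 16.24. Its rise of 2.53 ± 0.18 (5.78-fold, adjusted p = 9.3e-06, 3.08 relative to U6) came on top of a day 4 level already above the baseline values of 19.70 to 19.97. The 2 arms of the miR-434 hairpin, also antisense to Rtl1, rose by 2.42 ± 0.16 (miR-434-3p) and 1.82 ± 0.20 (miR-434-5p).

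miR-431, which is known to target Pax7, the satellite cell transcription factor, rose at every value as well. Its scaled Ct fell from 21.98, 21.65, 22.46 and 21.97 at day 4 to 19.79, 20.05, 19.83 and 20.14 at day 7. The rise was 2.06 ± 0.18 (4.18-fold, adjusted p = 1.5e-05, 2.61 relative to U6). At baseline the assay read 26.41 to 29.12, so day 7 was the highest of the 3 levels for miR-431. miR-433, its neighbour in the Rtl1 antisense group, was near the detection limit at baseline (32.47 to 33.95) and read 24.32 to 24.57 at day 4 and 22.91 to 23.30 at day 7, a rise of 1.29 ± 0.12 (2.45-fold). Within the same wells, where the reference RNA cancels, miR-431 exceeded miR-433 by 2.34, 2.68, 2.04 and 2.60 cycles at day 4 and by 3.31, 3.19, 3.08 and 3.16 at day 7. The values of that difference did not overlap, and it widened by 0.77 ± 0.15 (exact permutation p = 0.0286, the smallest that 4 against 4 can give, and 0.0857 adjusted over the 6 such differences tested).

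The domain's miRNAs fell into blocks along chromosome 12, and both blocks rose. From miR-337-5p to miR-136 (chr12:109585818-109595352, plus strand, GRCm38.p6), the block antisense to Rtl1, 9 of 9 assays rose by 1.25 to 2.88 with a median of 1.82. miR-337-5p and miR-337-3p, the arms of the first hairpin, rose by 1.36 ± 0.10 and 1.25 ± 0.13. Farther along, miR-370 stands alone and rose by 0.35 ± 0.11, a call lost in 3 of 8 fits that each left out a value (largest adjusted p 0.0615). From miR-379 to miR-410 (chr12:109709065-109743784), the block within the noncoding RNA Mirg, 15 of 18 rose, with changes of -0.0016 to 2.04 and a median of 1.28. Its largest were miR-381 (2.04 ± 0.21), miR-411 (1.72 ± 0.13), miR-376a (1.60 ± 0.13) and miR-410 (1.57 ± 0.13), and its first, miR-379, rose by 1.35 ± 0.10.

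The 3 members that did not pass all lie in the Mirg block. miR-494 changed by 0.09 ± 0.12, a value that turns negative with the median Ct and with quantile scaling. miR-409-3p changed by 0.23 ± 0.13. miR-134, known from neuronal dendrites, changed by -0.0016 ± 0.40 on widely spread values, 22.51 to 23.75 at day 4 and 22.58 to 24.32 at day 7, and its sign was positive with each control RNA and with raw Ct. Measured in the same wells, miR-136 minus miR-134 lay between -0.76 and 0.34 cycles at day 4 and between 1.89 and 4.04 at day 7. miR-543 rose by 1.01 ± 0.30 with overlapping values, and that call was lost without value 4 of day 4 (adjusted p = 0.0501).

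**Figure D2:**
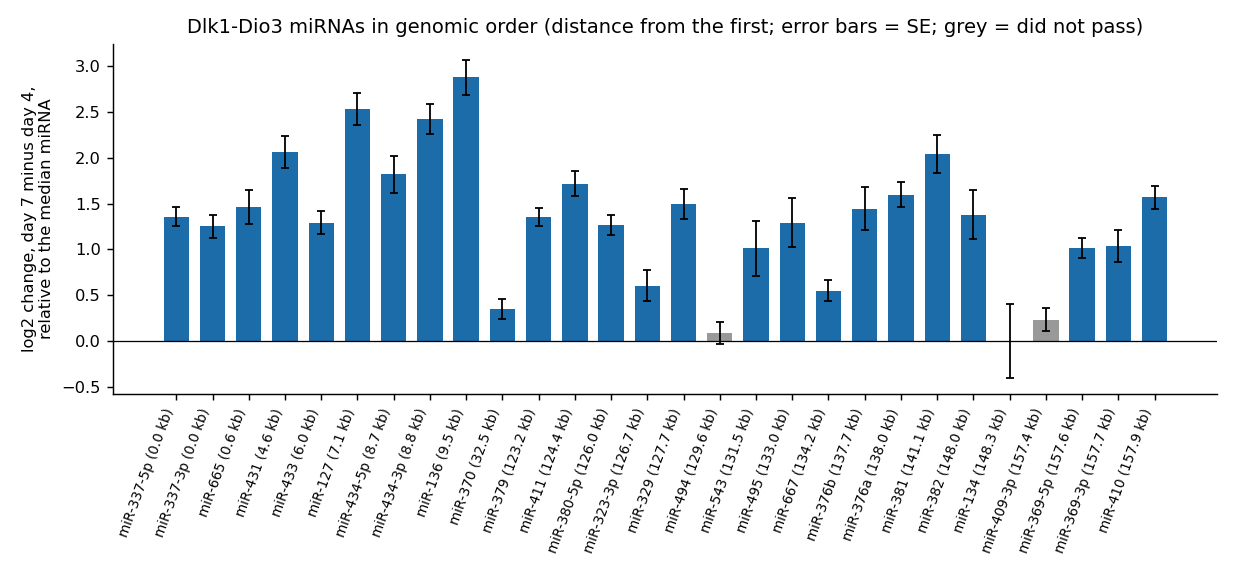
Log2 change from day 4 to day 7 relative to the median miRNA (y axis) of the 28 Dlk1-Dio3 assays with a RefSeq position, in genomic order with the distance from the first in kb; bars are estimates, whiskers the SE, blue passed the test and grey did not. The 9 assays of the Rtl1 antisense block lie between 1.25 and 2.88, and the lowest bars are miR-134, miR-494, miR-409-3p and miR-370.

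The muscle-enriched miRNAs were the next group to rise: 4 of 5 measured members rose, where 27.6% of all 217 miRNAs did. All 4 passed under both scalings, and the median over the 5 was 1.45. miR-499, which is encoded within the slow myosin gene Myh7b, rose the most, from scaled Ct values of 29.60, 30.45, 30.66 and 30.68 to 27.39, 28.51, 27.64 and 28.98 (2.22 ± 0.38, 4.65-fold, adjusted p = 0.00095, and 2.76 relative to U6). miR-1, which promotes myoblast differentiation in part by repressing Hdac4, read 16.44, 16.14, 16.74 and 17.20 at day 4 and 15.07, 15.07, 14.40 and 15.92 at day 7. The arms did not overlap, and the rise was 1.52 ± 0.33 (2.86-fold, adjusted p = 0.0035, and 2.06 relative to U6). Baseline muscle held far more miR-1, at 11.72 to 11.91, so the day 7 values were between those of day 4 and those of intact muscle.

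miR-133a, transcribed with miR-1 and known to repress serum response factor, went from 12.97, 12.03, 13.37 and 12.88 to 11.20, 11.18, 11.29 and 11.80, against 8.04 to 8.54 at baseline. Its rise of 1.45 ± 0.27 (2.72-fold) was close to that of miR-1, and within wells miR-1 minus miR-133a changed by 0.07 ± 0.32 (exact permutation p = 0.857). miR-1 minus miR-499 changed by -0.70 ± 0.35 (exact permutation p = 0.114, 0.229 adjusted over the 6 differences), with overlapping values. miR-486, encoded in the ankyrin gene Ank1, rose by 1.40 ± 0.26 (2.63-fold). It is made in muscle and also in red cells, whose defining miRNA miR-451 moved the other way over this interval. miR-133b changed by 0.26 ± 0.12 with overlapping values (adjusted p = 0.089), and miR-206, its partner locus, was not analysed here. Summed over the 5 markers, the myofibre signal at day 7 was 1.79 to 2.73 times the day 4 mean, and at baseline 17.1 to 23.4 times. miR-133a has the lowest Ct of the 5 in every well and outweighs the others, so the sum mostly restates miR-133a.

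**Figure D3:**
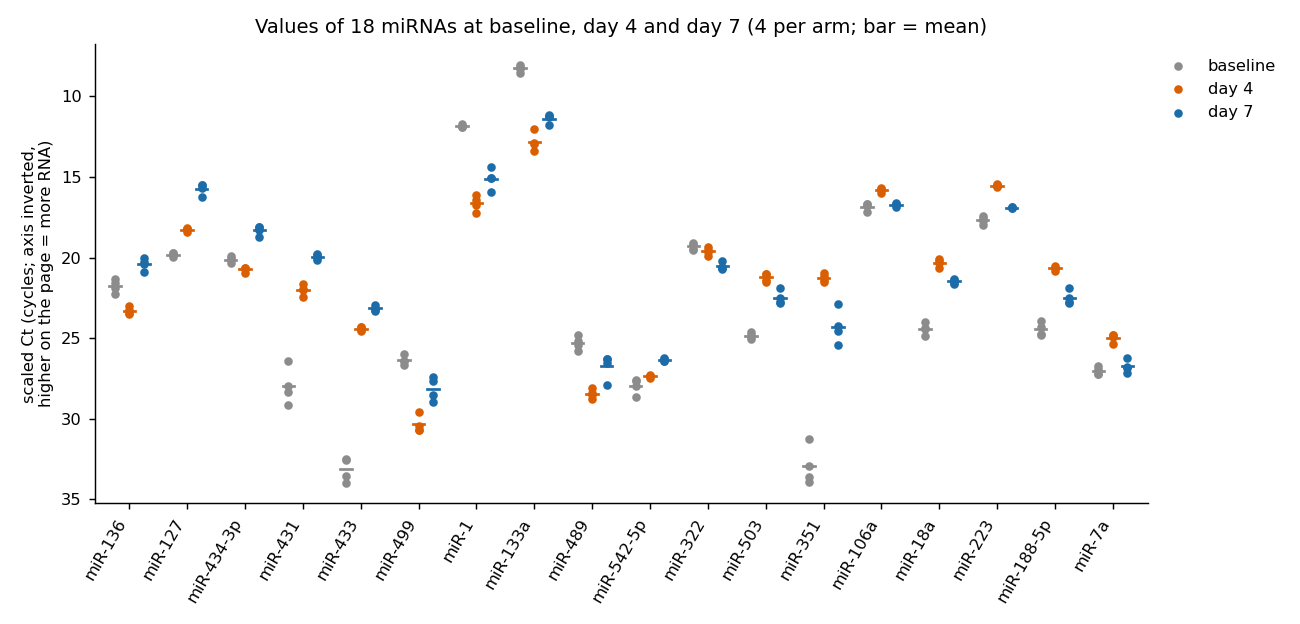
Scaled Ct in cycles (y axis, inverted so that more RNA is higher) of 18 miRNAs in each of the 4 values of baseline (grey), day 4 (orange) and day 7 (blue), with bars at the means. For miR-1 and miR-133a the day 7 values lie between day 4 and baseline, for miR-136, miR-127 and miR-431 they lie above both, and for miR-351 and miR-223 below day 4.

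Among miRNAs tied to satellite cells and myoblasts, 3 of 14 rose, 3 fell and 8 did not pass, with a median of 0.14 that turns negative with the median Ct. Over all 217 miRNAs 27.6% rose and 30.0% fell, and nothing is read from these counts. miR-489, which holds satellite cells quiescent by repressing Dek, rose from 28.39, 28.77, 28.09 and 28.53 to 26.30, 26.26, 26.52 and 27.87 (1.71 ± 0.34, 3.27-fold, adjusted p = 0.0026). All 4 day 7 values were above day 4, and all 4 remained below the baseline levels of 24.82 to 25.79. miR-128a rose by 0.75 ± 0.19, and miR-26a, a repressor of Ezh2, by 0.54 ± 0.17, a call lost in 4 of 8 fits that left out a value (largest adjusted p 0.0642). miR-31, which restrains Myf5 in quiescent cells, changed by -0.16 ± 0.17, with the sign depending on the scaling. The 3 that fell were miR-15b (-0.96 ± 0.14), miR-16 (-0.57 ± 0.12) and miR-15a (-0.52 ± 0.16), repressors of cell cycle genes. Relative to Y1 the values of miR-16 and miR-15a were positive (for miR-15a relative to U6 too), and the call of miR-15a was lost in 3 of 8 fits that left out a value (largest adjusted p 0.0595).

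The deepest fall of the whole panel was that of miR-351, known to support the proliferation and survival of myogenic progenitors and to target E2f3. It read 21.39, 21.51, 21.16 and 20.98 at day 4 and 24.22, 24.52, 25.44 and 22.90 at day 7. No day 7 value came near those of day 4, and the day 7 wells were the more widely spread. miR-351 fell by 3.01 ± 0.45 (8.05-fold, adjusted p = 0.00041), and relative to U6 it fell by 2.46 (adjusted p = 7.9e-05). The second p rests on the SE that the miRNAs share relative to U6, so it is not stronger evidence than the first. It passed under all 12 scalings and was the single fall of the 65 to do so. At baseline the assay read 31.24 to 33.93, so that day 7 still held far more miR-351 than intact muscle.

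miR-351 belongs to a cluster on the minus strand of chromosome X whose members parted ways. From miR-542-3p to miR-322 (chrX:53049415-53054327) it holds 5 of the 6 assays, and miR-450a-5p, which has 2 copies, lies just beyond (chrX:53048206-53048227 for the first). miR-322 and miR-503, which slow the cell cycle by reducing Cdc25a in differentiating myoblasts, fell by 0.93 ± 0.16 and by 1.28 ± 0.22. miR-322 went from 19.35 to 19.91 at day 4 to 20.23 to 20.71 at day 7, and miR-503 from 20.99 to 21.48 to 21.89 to 22.82. miR-542-5p instead rose from 27.45, 27.25, 27.34 and 27.34 to 26.38, 26.30, 26.39 and 26.25 (1.02 ± 0.10, 2.02-fold), and also passed relative to U6 (1.56). miR-450a-5p rose by 0.50 ± 0.14, and miR-542-3p changed by 0.33 ± 0.15 (adjusted p = 0.075). The 6 measured members thus held 2 rises and 3 falls, where 27.6% of all 217 miRNAs rose and 30.0% fell. Their median of -0.30 is positive with U6, snoRNA135, Y1 and the mean of the control RNAs.

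These differences within the cluster did not hang on a reference RNA. In the same wells miR-351 minus miR-322 was -1.85, -1.60, -1.81 and -1.34 cycles at day 4 and -3.51, -3.95, -4.77 and -2.67 at day 7. The change was -2.08 ± 0.45 (exact permutation p = 0.0286, 0.0857 adjusted over the 6 differences), and the arms did not overlap. miR-503 minus miR-322 changed by -0.35 ± 0.26 (exact permutation p = 0.257). Measured against miR-351 and without a test, miR-542-5p gained 4.03 cycles between the days, and miR-125b-5p, of the same seed as miR-351, gained 3.44. miR-125b-5p itself rose by 0.43 ± 0.11 and miR-125a-5p changed by -0.04 ± 0.36, so the seed CCCUGAG held the deepest fall of the panel beside a rise.

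The miRNAs of dividing cells fell together relative to the median miRNA. All 9 measured members of the miR-17-92 and miR-106b-25 clusters, which MYC and E2F factors switch on, fell, with a median of -0.78. Values did not overlap in any of the 9. Over all 217 miRNAs 30.0% fell and 51.6% had values that did not overlap. None of the 9 passed relative to U6, where their median was -0.24. That median stayed below 0 under every scaling (-0.0125 with Y1, the closest), but not every member did. Relative to Y1 miR-93 (0.095), miR-106b (0.15) and others, up to 0.28, were above 0, and some members were above 0 relative to U6 too. miR-18a fell by 1.16 ± 0.14 (2.24-fold), from 20.33, 20.61, 20.09 and 20.20 to 21.62, 21.30, 21.58 and 21.38. miR-17, the cluster's best known member, fell by 0.95 ± 0.12, miR-20a by 0.94 ± 0.13 and miR-19a by 0.83 ± 0.15.

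miR-106a, from the paralogous cluster on chromosome X, went from 15.79, 16.01, 15.68 and 15.77 to 16.69, 16.76, 16.84 and 16.58. It fell by 0.90 ± 0.11 (1.87-fold, adjusted p = 0.00016) and by 0.36 relative to U6, where it did not pass (adjusted p = 0.69). The day 7 values overlapped those of baseline, 16.66 to 17.19. miR-20b, of the same cluster, fell by 0.75 ± 0.17, and its value relative to Y1 was 0.02.

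Grouped by seed, the 181 assays with a matched sequence held 27 families of at least 2 measured members, 78 assays in all. Assays without a match, miR-30b and miR-133a among them, were not placed in a family, so families can lack measured members. In 19 of the families every call went a single way, in 3 the calls went both ways, and in 5 none passed. The 19 include families with a single call, such as those of miR-193b, miR-708 and miR-489, which could not go both ways. That count is therefore no measure of agreement within families. All 6 miRNAs with the seed AAAGUGC (miR-17, miR-20a, miR-106a, miR-20b, miR-93 and miR-106b), from 3 loci, fell by similar amounts, with changes of -0.95 to -0.62. Relative to Y1, however, miR-20b, miR-93 and miR-106b had values just above 0. In the family AGCAGCA, miR-15b, miR-322, miR-16 and miR-15a fell while miR-195 (0.24 ± 0.12) and miR-497 (0.36 ± 0.16), transcribed together on chromosome 11, did not pass. miR-7a and miR-7b, of the seed GGAAGAC, fell by 1.79 ± 0.21 and by 1.47 ± 0.21 and kept that sign under all 12 scalings.

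Some families split. miR-152 rose by 0.80 ± 0.12 and miR-148b fell by 0.74 ± 0.20, and within wells their difference went from 5.19 to 5.67 cycles at day 4 to 6.69 to 7.40 at day 7. miR-146a, an NF-kB target that damps inflammatory signalling, rose by 0.62 ± 0.12, whereas miR-146b fell by 0.32 ± 0.12. The call of miR-146b was lost in 7 of 8 fits that left out a value (largest adjusted p 0.118), and its sign turned with U6, snoRNA135, Y1 and the mean of the control RNAs. The miR-146a minus miR-146b difference in the same wells needs no reference and went from 1.83 to 2.11 cycles to 2.80 to 3.06. miR-193b rose by 1.52 ± 0.27, while miR-193, of its seed, changed by 0.09 ± 0.19. Likewise miR-708 rose by 1.47 ± 0.19 beside miR-28 at -0.13 ± 0.10, and miR-489 rose beside miR-425 at -0.46 ± 0.21.

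**Figure D4:**
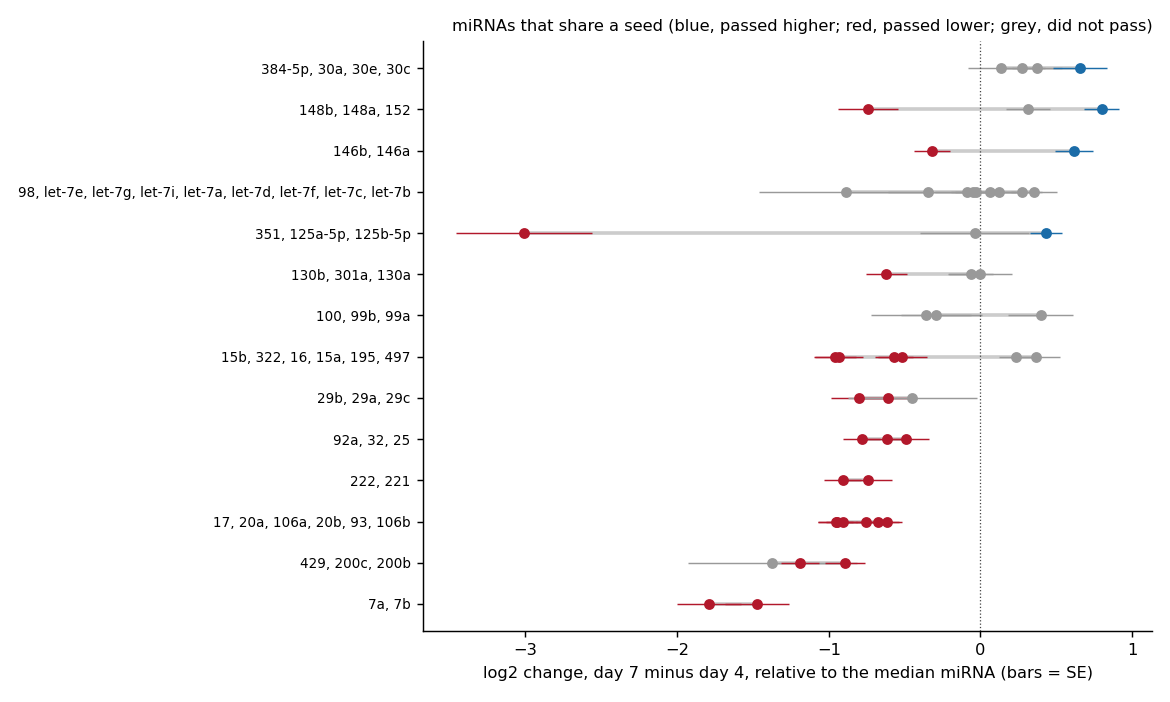
Log2 change from day 4 to day 7 relative to the median miRNA (x axis) of miRNAs grouped by shared seed (a row each, named by miRNA number), with the SE as bars; blue rose, red fell and grey did not pass. The row of miR-17 lies wholly between -0.95 and -0.62, while the row of miR-351 spans -3.01 to 0.43.

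Of 11 blood cell miRNAs 7 fell, where 30.0% of all 217 miRNAs did, 1 rose and 3 did not pass. None of the 11 fell under both scalings, and their median of -0.44 turns positive with U6 and Y1. miR-223, abundant in neutrophils and macrophages, fell from 15.55, 15.64, 15.44 and 15.48 to 16.93, 16.88, 16.91 and 16.83, one of the tightest separations on the panel (-1.36 ± 0.10, 2.57-fold, adjusted p = 9.3e-06). It stayed below 0 under every scaling and was at -0.81 relative to U6 (adjusted p = 0.30), and at day 7 it was still above the baseline values of 17.40 to 17.96. miR-142-5p and miR-142-3p, the arms of a hairpin made in all blood cells, fell by 0.98 ± 0.13 and by 0.97 ± 0.20, and their difference within wells changed by -0.01 ± 0.15 (exact permutation p = 0.971). miR-451, of red cells, fell by 1.14 ± 0.26, with the day 7 values ranging from 20.88 to 22.13 against 20.05 to 20.23 at day 4. miR-147, induced in stimulated macrophages, fell by 0.94 ± 0.27 with overlapping values.

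Summed signals of the marker lists put these changes side by side. With scaling to the median miRNA and the day 4 mean set to 1, the sum over 8 myeloid and lymphoid markers was 0.62 to 0.77 at day 7 and 0.62 to 0.97 at baseline. The lymphocyte miRNA miR-150 had the lowest Ct of the 8 at baseline (15.07 to 15.73) and outweighed the others there. It and miR-155 were below baseline at day 7, whereas miR-223, miR-146a, miR-147 and both arms of miR-142 were above it. The sum therefore does not show that each marker had returned to baseline. At day 7 the red cell marker stood at 0.25 to 0.59 and the endothelial markers, miR-126-3p and miR-126-5p, at 1.30 to 1.42. For the 6 fibroblast and smooth muscle markers the range was 0.93 to 1.00, and for the 6 epithelial markers 0.95 to 1.13. Baseline was higher for each of these, at 0.92 to 3.93 for the red cell marker and 5.48 to 7.23 for the endothelial markers. It was 3.56 to 4.04 for the fibroblast and smooth muscle markers and 1.54 to 2.24 for the epithelial markers. These levels depend on the reference, as sums against U6 and Y1, added after the values were seen, show. Relative to U6 the day 7 sum was 0.533 to 1.88 for the myeloid and lymphoid markers, 0.44 to 1.45 for the red cell marker, 1.13 to 3.36 for the endothelial markers and 0.808 to 2.42 for the fibroblast and smooth muscle markers. Relative to Y1 the myeloid and lymphoid sum was 1.03 to 1.37, above the day 4 mean in each well, and the red cell marker 0.365 to 1.05. The endothelial sum was then 1.95 to 2.76, the fibroblast and smooth muscle sum 1.43 to 1.82 and the epithelial sum 1.39 to 2.17. The myofibre sum was above the day 4 mean with either, at 1.61 to 6.71 with U6 and 2.93 to 5.16 with Y1. The part of these shifts in the changes of the other miRNAs was not tested. miR-126-3p, encoded in the endothelial gene Egfl7, rose by 0.45 ± 0.10, while miR-222 and miR-221, also made by vessel and dividing cells, fell by 0.91 ± 0.12 and by 0.74 ± 0.16. The sign of miR-221 turned with Y1. The endothelial list therefore held 1 rise and 2 falls among 4, where 27.6% of all miRNAs rose and 30.0% fell. The sign of its median of -0.20 changed with 6 scalings.

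Among the fibroblast and smooth muscle miRNAs 1 of 6 fell and 5 did not pass (median 0.16, negative with the median Ct), where 30.0% of all 217 miRNAs fell. That one was miR-21, abundant in fibroblasts and macrophages, which fell by 0.54 ± 0.20. The call was lost in 5 of 8 fits that left out a value (largest adjusted p 0.107), and relative to U6 the change was 0.005. miR-199a-3p changed by 0.29 ± 0.16 and miR-214 by 0.18. The collagen-repressing miR-29 family held 2 falls among 3, too few to set against the 30.0% of all miRNAs. Its median of -0.61 turned positive with Y1. miR-29b fell by 0.80 ± 0.18, and the fall of miR-29a by 0.61 ± 0.18 was lost in 2 of 8 fits that left out a value (largest adjusted p 0.0531).

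The epithelial list holds the miR-200 family, which represses the ZEB factors, and miR-203. Of its 6 members 4 fell and 2 did not pass, where 30.0% of all 217 miRNAs fell. None fell under both scalings, and the median of -0.88 stayed negative under every scaling. miR-200c went from 24.34 to 24.43 at day 4 to 25.25 to 25.73 at day 7 (-1.19 ± 0.13), miR-200b fell by 0.89 ± 0.13 and miR-141 by 0.84 ± 0.23. miR-200a fell by 0.86 ± 0.31, a call lost in 5 of 8 fits that left out a value (largest adjusted p 0.106). miR-429 changed by -1.37 ± 0.56 (adjusted p = 0.061) on late and scattered values of 28.13 to 31.77. The skin marker miR-203 changed by 0.30 ± 0.17 and has the lowest Ct of the list, so it outweighs the others in the summed signal. Of the Sfmbt2 intron cluster, a large rodent array, 5 of 6 fell, where 30.0% of all miRNAs did. The median was -0.53 and turned positive with U6 and Y1. miR-467c fell by 1.18 ± 0.20, miR-467e by 0.81 ± 0.22, miR-467d by 0.60 ± 0.12 and miR-467a by 0.46 ± 0.12.

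The remaining lists are short, and their counts are to be read against the 27.6% of all miRNAs that rose and the 30.0% that fell. None of the 9 let-7 miRNAs passed in limma's fit, with a median of -0.03 and changes of -0.88 (miR-98) to 0.35 (let-7b). The sign of that median turned with each control RNA and with raw Ct. In the miR-30 family 2 of 5 rose, with a median of 0.37 that stayed positive throughout. These were miR-30c (0.66 ± 0.18) and miR-30b (0.51 ± 0.17), of which the second was lost in 4 of 8 fits that left out a value (largest adjusted p 0.081). In the miR-99/100 and miR-125 list miR-125b-5p was the single rise among 7 (median -0.29, positive with 4 scalings). Of 3 miR-34 miRNAs, which p53 induces, miR-34a fell by 0.96 ± 0.12, while miR-34b-3p and miR-34c changed by 0.02 and 0.09 (median 0.02, negative with 2 scalings).

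Of 5 neuronal miRNAs 2 rose, where 27.6% of all miRNAs did, with a median of 0.25 that turns negative with quantile scaling. miR-9 rose by 1.16 ± 0.28, and miR-218 by 0.58 ± 0.18, a call lost in 2 of 8 fits that left out a value (largest adjusted p 0.0637). Of 4 liver and endocrine miRNAs miR-194 rose by 0.57 ± 0.17 and miR-192 by 0.40 ± 0.12, and miR-7a fell (median 0.48, positive under every scaling). The call of miR-192 was lost without value 3 of day 7 (adjusted p = 0.0517).

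**Figure D5:**
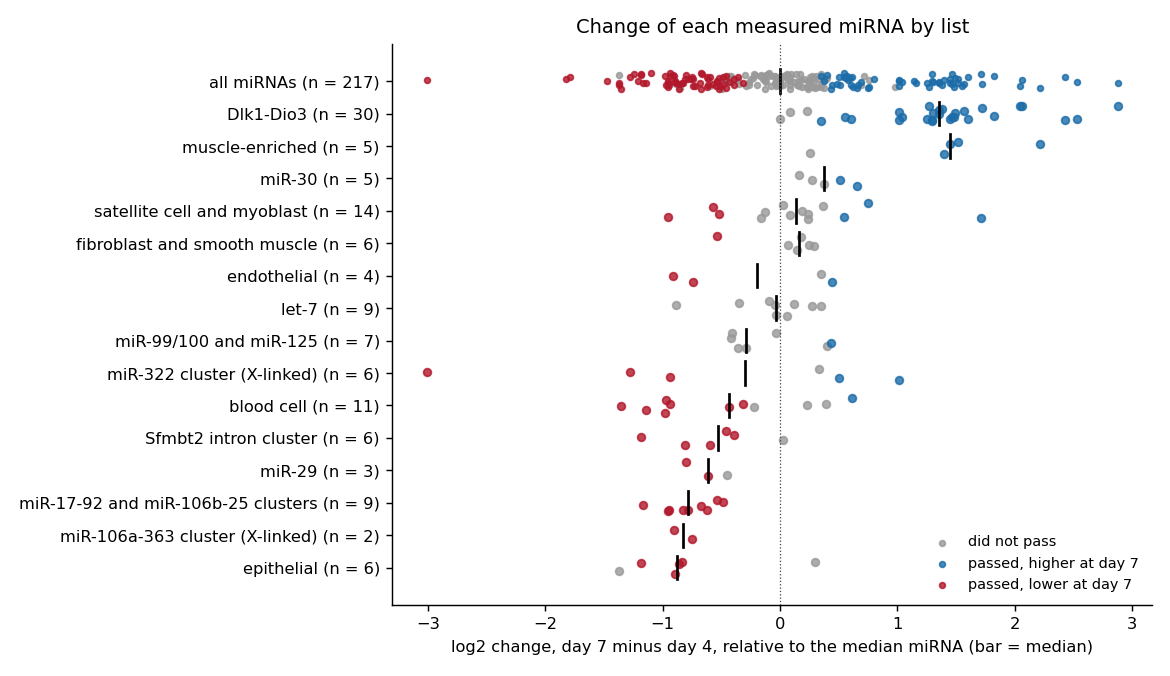
Log2 change from day 4 to day 7 relative to the median miRNA (x axis) of each measured miRNA, in rows for all 217 miRNAs and for the lists; blue passed as higher at day 7, red as lower, grey did not pass, and black bars are medians. The Dlk1-Dio3 and muscle-enriched rows lie to the right, with medians of 1.35 and 1.45, and the rows of the miR-17-92, miR-106a-363 and epithelial lists to the left.

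Outside the lists, some of the larger changes lay beside miRNAs that moved otherwise. miR-188-5p, encoded in the Clcn5 gene on chromosome X, fell from 20.64, 20.84, 20.53 and 20.61 to 22.51, 22.74, 22.82 and 21.85 (-1.82 ± 0.21, 3.54-fold, and -1.28 relative to U6, adjusted p = 0.074). Its neighbour miR-501-3p changed by -0.05 ± 0.22, and in the same wells miR-501-3p minus miR-188-5p went from -0.96 to -0.63 cycles at day 4 to -0.26 to 1.56 at day 7. At the imprinted Gnas locus miR-298 fell by 1.10 ± 0.15 while miR-296-5p rose by 0.66 ± 0.23, a call lost in 6 of 8 fits that left out a value (largest adjusted p 0.0961). Their difference within wells ran from -1.01 to -0.44 at day 4 and from 0.05 to 1.38 at day 7. miR-298 had read 34.62 or later in all baseline wells.

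Both arms were assayed for 17 hairpins, and in 9 of them the arms had the same call. The 9 include hairpins in which neither arm passed, miR-125a and miR-199a among them, and nothing is read from that count. The arms of miR-340 fell by 0.88 ± 0.18 (5p) and by 0.89 ± 0.19 (3p), and those of miR-142, miR-337 and miR-369 differed by at most 0.105. The arms of miR-335, from the imprinted Mest gene, lay farthest apart (5p minus 3p 1.25), followed by those of miR-125b (0.845), miR-542 (0.682), miR-434 (-0.605) and miR-324 (0.548). miR-335-5p rose by 0.76 ± 0.28, a call lost in 4 of 8 fits that left out a value (largest adjusted p 0.108), miR-335-3p changed by -0.49 ± 0.30, and their difference within wells went from -0.47 to 0.22 cycles to 0.44 to 1.84. Other sizeable rises were those of miR-224 (1.55 ± 0.12), miR-193b and miR-708, given with their seed partners, and miR-547 (1.14 ± 0.14), all 4 under both scalings. Other sizeable falls were those of miR-511 (-1.37 ± 0.20), a miRNA of macrophages encoded in the mannose receptor gene Mrc1, miR-187 (-1.37 ± 0.34), miR-182 (-1.24 ± 0.16) and miR-744 (-1.21 ± 0.13). None of those 4 falls passed relative to U6, and all kept their sign under the 12 scalings.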

How the data were processed

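Raw Ct values of 222 TaqMan assays (217 miRNAs and 5 control RNAs) were used as the authors deposited them, from total RNA of tibialis anterior with an integrity number above 9 and 40 cycles of PCR, per the labels' protocols. No normalization is recorded in the file headers. How the Ct threshold was set and how much RNA entered a reaction is not given in the sources used here. The baseline values, repeated in each file, were used once.

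Each well was scaled by the median deviation of 216 miRNAs, those under Ct 35 in all 8 day 4 and day 7 wells, from their mean. The second scaling was U6. Minus Ct of the 2 arms was fitted in R 4.3.3 with lmFit and eBayes of limma 3.58.1, two-sided, with Benjamini-Hochberg adjustment over 217 miRNAs. Wells at 40 were left out. The 6 differences between assays of a well were tested with a two-sided exact permutation test in SciPy 1.17.1, adjusted over the 6. The fit was tested on simulated data, in which assays shared a shift of their well and otherwise varied independently. Such data cannot show how the fit behaves where assays vary together in other ways.

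The comparison, its members and the 18 lists were chosen with earlier results of these data known. Names followed a rule, namely the 10 largest rises and 10 largest falls under both scalings (1 fall passed), miR-431, miR-351, miR-106a and miR-1, all members of the muscle-enriched, miR-322 and miR-106a-363 lists, and up to 4 of each other list with the largest change. It gave 75 miRNAs. A further 45 were named after their values were seen, among them miR-188-5p, miR-7b, miR-224, miR-298 and most Dlk1-Dio3 members. Alternatives covered the normalizer, the Ct limit, undetermined wells, size thresholds, limma-trend, all 6 arms in the fit, each value left out in turn and, added after seeing the data, day 7 values 2 and 3 averaged as 1.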

Additional observations from a re-analysis of the deposited data

Results flagged for a closer look

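In 11 of 250 groups of 4 values examined, a single value stood apart from the other 3 of its arm by Dixon's criterion, where chance flags about 1 in 20 groups. Values are scaled Ct in cycles. At day 7 these were miR-98 at 25.75 (arm median 27.73), miR-125a-3p at 26.71 (27.30), miR-199a-5p at 25.61 (26.80), miR-30c at 16.20 (15.63), miR-489 at 27.87 (26.41), miR-152 at 19.01 (18.78) and miR-337-5p at 22.30 (22.46). At day 4 they were miR-214 at 17.94 (18.18), miR-30a at 18.18 (18.70), miR-126-3p at 14.32 (14.49) and miR-30c at 16.07 (16.51). Value 4 gave the miR-125a-3p, miR-199a-5p, miR-30c and miR-489 values of day 7, and value 2 the miR-30a, miR-126-3p and miR-30c values of day 4. Of these miRNAs miR-489, miR-152, miR-337-5p, miR-126-3p and miR-30c had passed, and none of the 5 calls was lost when any value was left out.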

How the results depend on the processing

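Against 60 rises and 65 falls, U6 gave 36 and 1, Y1 133 and 9, and the mean of the control RNAs 99 and 27, while the falls numbered 20 with snoRNA135, 36 with snoRNA202 and 38 with raw Ct. Size thresholds left 35 and 15 at 2-fold and 6 and 1 at 4-fold (6 of the rises under both scalings). Leaving out a value gave 52 to 63 rises, 56 to 70 falls, 30 to 49 rises under both scalings and 1 to 3 falls under both. The 3, without value 3 of day 7, were miR-351, miR-188-5p and miR-7a, and all 6 arms in the fit gave 2, miR-351 and miR-188-5p. None of the 6 differences within wells had passed after adjustment, and with 3 values against 4 their exact p cannot go below 0.0571.

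Of 3120 values of the named miRNAs under alternatives, 2750 kept their side of the threshold, 251 lost and 97 gained a call, and 22 changed sign while passing in the original or the altered setting. Among the 2750, 71 changed sign with no call in either setting, 56 with a changed normalizer and 15 otherwise. The 22 all came with a changed normalizer. Relative to Y1 they were miR-20b 0.0175, miR-221 0.0275, miR-148b 0.03, miR-93 0.10, miR-106b 0.15, miR-29a 0.16, miR-467d 0.17, miR-16 0.20, miR-21 0.23, miR-15a 0.26, miR-467a 0.31, miR-146b 0.45, miR-132 0.57, miR-31 0.61, miR-28 0.64 and miR-501-3p 0.73. Relative to U6 they were miR-21 0.005, miR-467a 0.0875, miR-15a 0.03 and miR-146b 0.23, and for miR-146b also 0.0025 with snoRNA135 and 0.0865 with the mean of the control RNAs. Beyond the scaling itself the cause was not tested. Of 85 named miRNAs that passed, 72 kept the call when any value was left out. The values of the 2 days were not paired, since the labels give 4 mice per time point and name no pairing between days.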
